A study of Mus musculus with 6 samples.

Results

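The tricarboxylic acid cycle was followed through 9 of its genes in mouse embryonic stem cells after knockdown of Son, a protein of nuclear speckles that takes part in splicing. The genes are Cs, Idh1, Idh2, Idh3a, Idh3b, Idh3g, Ogdh, Sdha and Mdh2, which are 9 of the 9844 genes with an intron listed in all 4 total RNA libraries. They were chosen by name, with Idh2 singled out from measured values of the same control and knockdown libraries, so their values and calls are given as a description and support no test. The cells were of the E14 line, a mouse embryonic stem cell line of 129/Ola background, grown on gelatin in medium with serum and leukemia inhibitory factor. They received either a control siRNA or an siRNA against Son by lipofection, and RNA was taken 24 hours after transfection. Total RNA depleted of rRNA was sequenced in 2 control and 2 Son knockdown libraries, and polyA RNA was sequenced as long Nanopore cDNA reads in 1 control and 1 Son knockdown library. The labels of both long-read samples, the control included, name the first Son knockdown total RNA sample as their source, so the origin of the long-read control is uncertain and the groups follow the treatment labels. Whether the 2 libraries of a group came from separate cultures is not given in the sources used here, so the spread between them may be technical.

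The tricarboxylic acid cycle oxidises acetyl groups in the mitochondrial matrix and passes the electrons to the respiratory chain. Citrate synthase (Cs) joins acetyl-CoA to oxaloacetate, isocitrate dehydrogenases turn isocitrate into 2-oxoglutarate, the 2-oxoglutarate dehydrogenase complex (Ogdh is its first component) makes succinyl-CoA, succinate dehydrogenase (Sdha is its catalytic subunit) oxidises succinate, and malate dehydrogenase (Mdh2) restores oxaloacetate. The NAD-dependent isocitrate dehydrogenase is built from the Idh3a, Idh3b and Idh3g products, whereas Idh2 encodes a separate NADP-dependent enzyme of mitochondria and Idh1 its cytosolic counterpart. In embryonic stem cells the cycle is also known as a source of 2-oxoglutarate, a cofactor of enzymes that remove methyl groups from histones and DNA.

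Split reads at 5′ splice sites, summed over the listed introns, numbered between 10556187 and 16012286 in the 4 total RNA libraries. A read can be counted at more than 1 intron in these sums. The 2 long-read libraries held 3080426 reads in control and 1874851 in knockdown. Spliced reads, given as CPM (reads scaled to the library's total), were 281 and 312 for Son in controls against 94.6 and 102 after knockdown, a log2 fold change of -1.61 ± 0.09 (SE, n = 2 per group, adjusted p = 3.7e-10 by edgeR's quasi-likelihood test). Of 12 markers of embryonic stem cells, 11 were listed and together gave 5035 to 5126 CPM in controls and 4877 to 5162 in knockdown. Within that sum, Fgf4 was called in fewer spliced reads (log2 fold change -0.39) and Tfcp2l1 in more (0.23), and 1 marker, Pou5f1, was called lower in splicing efficiency. Markers of other cell types were scarce. Only Thy1 of 8 fibroblast markers was listed, at 1.16 to 2.19 CPM, with 2 of 6 primitive endoderm markers at 2.90 to 3.84 in sum, 1 of 5 mesoderm markers at 2.18 to 4.73, and none of 4 markers of 2-cell-like cells. Of 5 neural markers 3 were listed, almost all of it Tubb3, at 71.5 and 75.4 in controls and 82.6 and 87.1 in knockdown. In these bulk samples, fewer cells of a type and less RNA per cell cannot be told apart.

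Idh2 differed most from control among the 9 genes in splicing efficiency, in spliced reads and in long reads, and its introns are shown first. The gene lies on the minus strand of chromosome 7. Its protein-coding transcript Idh2-201 has 10 introns, of which introns 2, 3, 4, 9 and 10 were listed in all 4 total RNA libraries. The bases on both sides of the removed intron in the spliced mRNA are given below for introns 2, 3, 9 and 10 from the GENCODE M21 transcript of the same identifier and length. Each line reads 5′ to 3′, with the last 3 bases of the upstream exon and the first base of the downstream exon in capitals, so that the intron sat between the third and the fourth capital.
Idh2 intron 2: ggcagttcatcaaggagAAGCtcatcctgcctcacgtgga
Idh2 intron 3: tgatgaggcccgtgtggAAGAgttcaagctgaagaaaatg
Idh2 intron 9: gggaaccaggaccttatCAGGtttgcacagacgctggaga
Idh2 intron 10: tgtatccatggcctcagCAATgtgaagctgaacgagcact
These junctions lie in the coding sequence. Intron 4 is 83 nt long. In the GRCm39 build, intron 9 spans chr7:79745462-79745546 and is 85 nt long. Introns 2 (chr7:79750657-79752869, 2213 nt), 3 (chr7:79748907-79750490, 1584 nt) and 10 (chr7:79744952-79745368, 417 nt) are longer. Within 100 exon bases on either side of the junction, the GC content was 52.5% to 59.7% for the Idh2 introns, against a median of 52.0% and a range of 38.8% to 68.0% over 68 listed introns of the other members' main transcripts.

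At each end of an intron, a read is either split, that is, joined to another exon, or runs on into the intron. Splicing efficiency is the share of split reads at the 2 ends, whichever exon they join. For Idh2 intron 4 it was 0.986 and 0.978 in controls, against 0.901 and 0.887 after knockdown. These values rest on counts summed over both ends, where a read split across the whole intron counts at each end. The same sums are given for introns below unless an end is named. Control library 1 had 11 unsplit against 781 split counts (389 at the 5′ end and 392 at the 3′ end). Control library 2 had 12 against 529. After knockdown the counts were 38 against 344 and 29 against 228. Both knockdown libraries thus held more unsplit reads than either control library, from fewer reads in all. For intron 9 the efficiency was 0.974 and 1.000 in controls and 0.905 and 0.923 in knockdown. The second control library held 0 unsplit reads against 286 split counts at that intron, 143 at each end. By counting error alone this allows an unsplit share of up to 1.05%. For intron 10 the efficiency was 0.966 and 0.957 in controls and 0.915 and 0.873 in knockdown. Its unsplit reads numbered 21 and 19 in controls and 20 and 19 in knockdown, while its split reads numbered 596 and 424 in controls and 215 and 131 in knockdown. Introns 2 and 3 moved least. Intron 2 was at 0.985 and 0.976 in controls and 0.965 and 0.966 in knockdown, and intron 3 at 0.986 in both controls and 0.963 and 0.972 in knockdown. All 5 introns were lower in both knockdown libraries than in both control libraries, as the plot of the Idh2 introns shows. The same held for 24.3% of all introns, and introns of 1 gene are not separate observations.

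**Figure D1:**
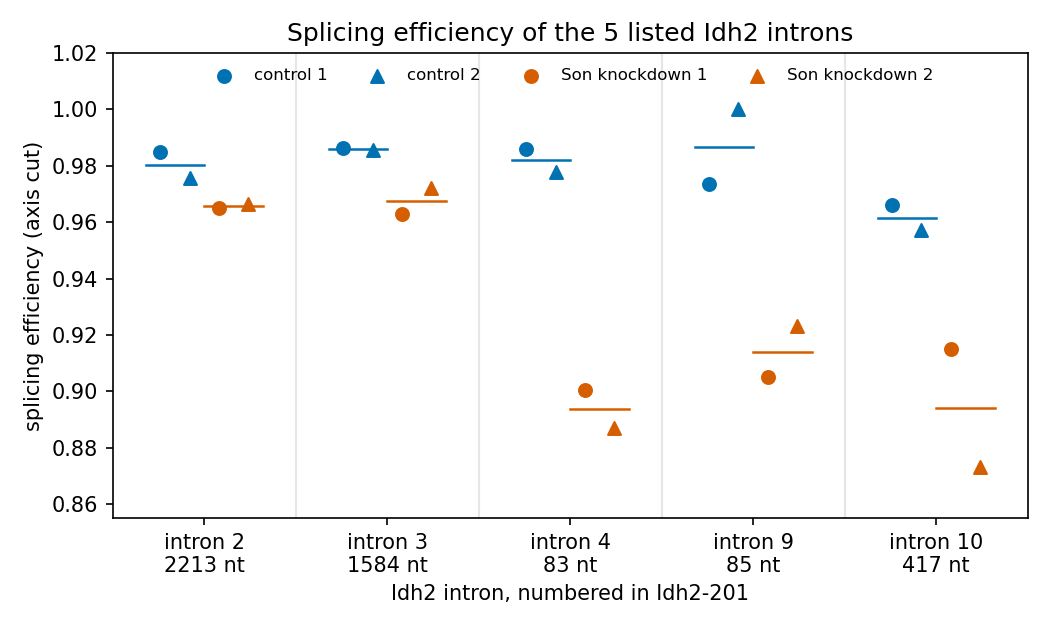
Splicing efficiency (vertical axis, a share of junction reads, axis cut) of the 5 listed Idh2 introns in each total RNA library; bars mark the mean of 2 libraries. Introns 4, 9 and 10 sit between 0.873 and 0.923 in the knockdown libraries, and introns 2 and 3 between 0.963 and 0.972.

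The log2 odds ratio of unsplit to split reads, knockdown against control, was 2.72 ± 0.50 (SE, n = 2 per group) for intron 4, 2.68 ± 0.70 for intron 9, 1.54 ± 0.52 for intron 10, 1.27 ± 0.66 for intron 3 and 0.90 ± 0.56 for intron 2. In a quasi-likelihood fit over 63309 introns, 1.71% were called lower at an adjusted p under 0.05, and introns 4 and 9 of Idh2 were among them. Those 2 are the only called introns among 77 of the 9 genes, and both are under 100 nt. Among all 4253 introns of up to 100 nt, 8.28% were called lower. The call of intron 4 was lost without control library 1, where its log2 odds ratio was 2.37, and with limma. The call of intron 9 was lost without control library 2 (1.81) and without knockdown library 1 (2.45), with either junction alone, and with DESeq2 or limma.

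The other 5 introns of Idh2-201 (introns 1, 5, 6, 7 and 8) were not listed, and an exon of another annotated Idh2 transcript overlaps 4 of them. In their place, 2 introns of the transcript Idh2-202 were listed in 3 libraries, without control library 1. The intron at chr7:79745884-79746919 had an efficiency of 0.887 in the 1 control, against 0.739 and 0.670 after knockdown. The intron at chr7:79746959-79747551 was at 0.937 in the control and 0.862 and 0.813 in knockdown. Both entered no fit, and each has 1 end at which almost no read was split: at the 5′ end of the first, 5, 1 and 2 reads were split in control library 2, knockdown library 1 and knockdown library 2.

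Summed over its introns, Idh2 had an efficiency of 0.981 and 0.978 in controls and 0.932 and 0.924 in knockdown, and the groups did not overlap, which held for lower efficiency in 27.1% of all genes. The log2 odds ratio of Idh2 was 1.88 ± 0.30. In CPM of all junction reads, unsplit reads were 2.15 and 2.42 in controls and 3.18 and 2.996 in knockdown, while split reads were 111 and 106 in controls and 43.9 and 36.6 in knockdown. Unsplit reads of Idh2 were thus slightly more frequent in both knockdown libraries, and split reads far less frequent. For comparison, 5′ ends over all listed introns held 920028 unsplit beside 16012286 split reads and 696201 beside 10640247 in controls. In knockdown they held 971880 beside 14978479 and 780552 beside 10556187. Of 9370 genes in the fit per gene, 6.98% were called lower in efficiency, with Idh2 and Idh3g being the 2 members called. An odds ratio above that of Idh2 was found for 156 of the 9370 genes.

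Idh3g, which encodes a regulatory subunit of the NAD-dependent enzyme and lies on the X chromosome, came second. Its efficiency was 0.972 in both controls and 0.958 and 0.950 in knockdown, and the groups did not overlap. The log2 odds ratio was 0.73 ± 0.24. Unsplit reads were 6.96 and 6.50 CPM of all junction reads in controls and 8.64 and 10.1 in knockdown. Its 7 listed introns had log2 odds ratios from 0.28 to 1.16 and no call of their own. Of the 7, 5 were lower in both knockdown libraries than in both controls, which held for 24.3% of all introns. The introns of a gene come from the same libraries and share its reads, so they are not separate observations. The gene's call was lost without any 1 of the 4 libraries, at 0.73 without control library 1, 0.73 without control library 2, 0.85 without knockdown library 1 and 0.61 without knockdown library 2.

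The introns of Idh3g differed among themselves. Intron 5 (chrX:72824819-72825282, 464 nt) had both the lowest control efficiency and the most negative mean difference, at 0.890 and 0.901 in controls and 0.898 and 0.779 in knockdown. Only knockdown library 2 was low there, so the groups overlapped. Of its 2 introns under 100 nt, intron 11 (87 nt) was at 0.950 and 0.940 in controls and 0.921 and 0.889 in knockdown, whereas intron 9 (89 nt) was at 0.987 and 0.989 in controls and 0.987 and 0.984 in knockdown. The first intron of the transcript Idh3g-205 (3811 nt) was joined mostly at its 3′ end, with 105 split reads at the 5′ end and 1847 at the 3′ end in control library 1, so its efficiency of 0.969 to 0.992 rests mostly on reads at the 3′ end.

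The other isocitrate dehydrogenase genes lay close to their controls. Idh3a, the catalytic subunit of the NAD-dependent enzyme, was at 0.975 and 0.970 in controls and 0.971 and 0.966 in knockdown. Idh3b, another subunit of it, was at 0.975 and 0.968 in controls and 0.971 and 0.959 in knockdown. Idh1 was at 0.980 and 0.974 in controls and 0.976 and 0.973 in knockdown. The groups overlapped for all 3 genes, with log2 odds ratios of 0.20 ± 0.25 for Idh3a, 0.27 ± 0.24 for Idh3b and 0.16 ± 0.25 for Idh1. No intron of these 3 genes was called. The log2 odds ratios of their introns ran from -0.34 to 0.49 in Idh3a, from -0.50 to 0.97 in Idh3b and from -0.49 to 0.73 in Idh1. In Idh3a, intron 8 (929 nt) had both the lowest control mean and the most negative difference of means, at 0.949 and 0.956 in controls and 0.941 and 0.931 in knockdown. In Idh3b the lowest control values were those of intron 1 (133 nt), at 0.913 and 0.903, and the most negative difference that of intron 6 (97 nt), at 0.983 and 0.977 in controls and 0.965 and 0.957 in knockdown. In Idh1 both places were taken by an intron of the transcript Idh1-207 (1812 nt). It was at 0.696 and 0.528 in controls and 0.596 and 0.531 in knockdown, from 36 to 64 reads per library summed over both ends.

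Citrate synthase and the later enzymes of the cycle also overlapped between groups. Cs was at 0.963 and 0.958 in controls and 0.966 and 0.953 in knockdown. Its intron 8 (134 nt) had the lowest control values, 0.912 and 0.892, with 0.908 and 0.873 in knockdown, and its intron 10 the most negative difference of means, from 0.939 and 0.975 to 0.953 and 0.937. Ogdh was at 0.960 and 0.956 in controls and 0.960 and 0.958 in knockdown. Its intron 12 (578 nt) had the lowest control mean, with 0.930 and 0.824, and its intron 11 (403 nt) the most negative difference, with 0.853 and 0.913 in controls and 0.903 and 0.777 in knockdown. Sdha was at 0.973 and 0.968 in controls and 0.971 and 0.967 in knockdown. Intron 12 of Sdha (189 nt) spread most of all 77 introns between its knockdown libraries, at 0.902 and 0.632, with 0.855 and 0.800 in controls. Its lowest library had 57 reads, summed over both ends. Mdh2 was at 0.981 and 0.979 in controls and 0.981 and 0.972 in knockdown, with intron 5 lowest in controls (0.972 and 0.970) and intron 7 with the most negative difference (0.986 and 0.979 against 0.979 and 0.972). The log2 odds ratios of these 4 genes lay between -0.03 for Ogdh and 0.18 for Mdh2, each with an SE of 0.22 to 0.26.

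**Figure D2:**
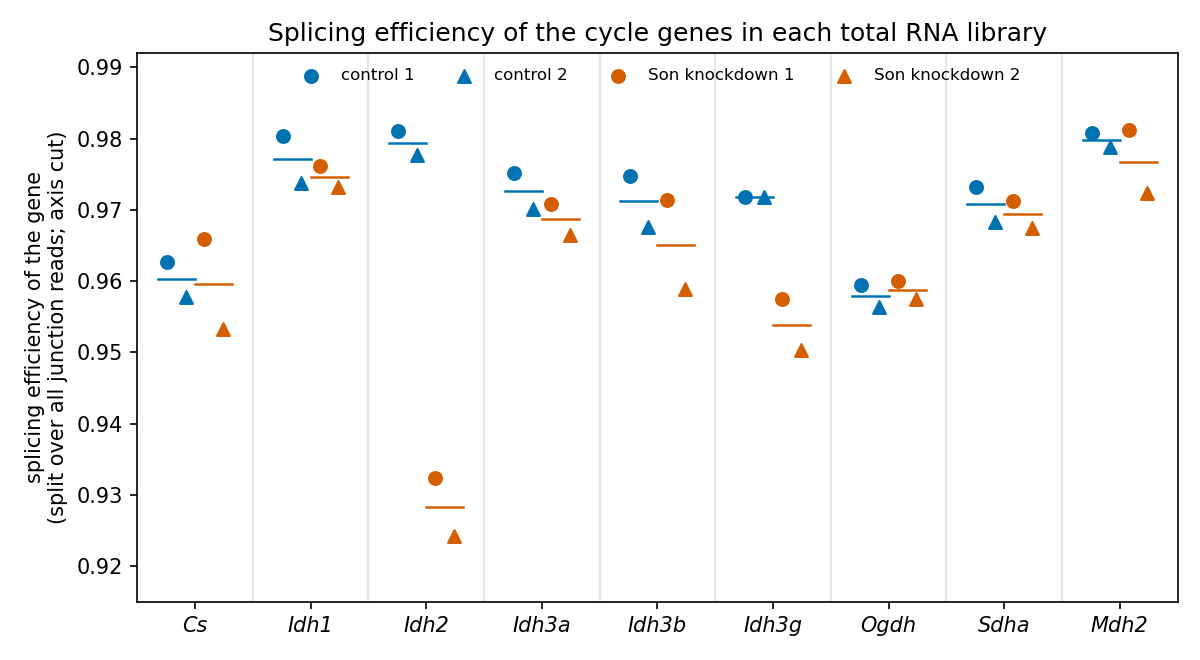
Splicing efficiency per gene (vertical axis, split over all junction reads, axis cut) in each total RNA library; bars mark the mean of 2 libraries. Idh2 after knockdown sits at 0.932 and 0.924 and Idh3g at 0.958 and 0.950, below their controls, and the groups overlap in the other 7 genes.

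Over all 77 introns, 21 (27.3%) were lower in both knockdown libraries than in both controls, where 24.3% of all introns were, and 7 (9.09%) were higher in both, where 13.1% of all introns were. These shares are near those of all introns. Ogdh holds 5 of the 7 higher introns, among them introns 6 and 7, at 0.947 and 0.951 against 0.974 and 0.992 and at 0.928 and 0.917 against 0.968 and 0.948. Another 4 of its 20 introns were lower in both knockdown libraries, and its mean differences were negative in 10 introns and positive in 10. The median log2 odds ratio was 0.22 over the 77 introns and 0.18 over the 72 outside Idh2, against 0.12 over all 63309. When split and unsplit reads are scaled separately the median over all introns is -0.04. In the fit per gene with that scaling the median over all genes is -0.08, with Idh2 at 1.72 and Idh3g at 0.56.

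Among the 77 introns, 8 are at most 100 nt long, the class of the 2 called ones. For comparison with Idh2 intron 9, the mRNA around the 6 that lie in other genes reads as follows, with capitals as before.
Idh3b intron 5 (77 nt): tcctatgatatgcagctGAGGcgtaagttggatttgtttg
Idh3b intron 6 (97 nt): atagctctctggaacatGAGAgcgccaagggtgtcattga
Idh3b intron 7 (91 nt): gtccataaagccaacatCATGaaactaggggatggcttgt
Idh3g intron 9 (89 nt): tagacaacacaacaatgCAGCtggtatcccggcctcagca
Idh3g intron 11 (87 nt): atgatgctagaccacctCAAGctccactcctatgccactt
Ogdh intron 16 (87 nt): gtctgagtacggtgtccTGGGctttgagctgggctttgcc
Their mean efficiency differed by between -0.0405 for Idh3g intron 11 and 0.00812 for Ogdh intron 16, against -0.0881 for Idh2 intron 4 and -0.0727 for Idh2 intron 9. Ogdh intron 16 has almost the length of the 2 Idh2 introns and was at 0.983 in both controls and at 0.989 and 0.994 in knockdown. The upstream exon ended in AG at 5 of the 8 junctions, and the downstream exon began with G at 5 of them; over all 73 listed introns of the main transcripts the counts were 41 and 38. Spearman's rho between length and the change in efficiency was 0.17 over the 77 introns, 0.14 without Idh2 and 0.18 over all 63309, where introns of a gene share its reads and depth.

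**Figure D3:**
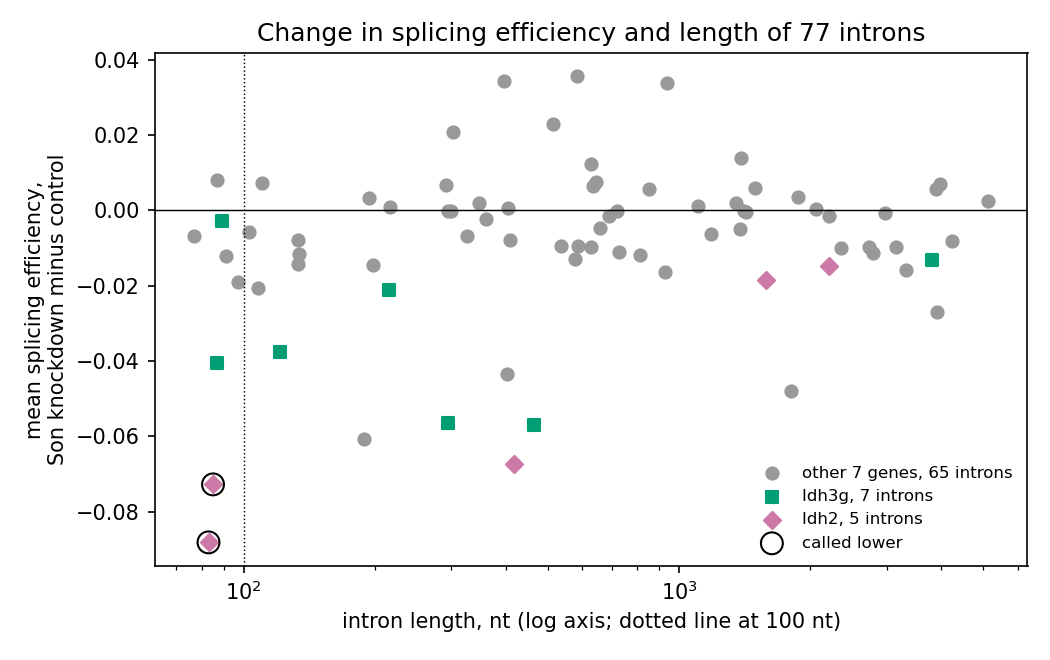
Mean splicing efficiency of knockdown minus control (vertical axis) against intron length in nt (log axis) for the 77 introns; circles mark the 2 called introns, both of Idh2. The 2 called introns sit at -0.0881 and -0.0727, while the 6 other introns of up to 100 nt lie between -0.0405 and 0.00812.

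Spliced reads, the split reads at 5′ splice sites summed over a gene's listed introns, were used as a measure of the mature RNA. For Idh2 they were 118 and 114 CPM in controls and 46.9 and 39.4 in knockdown. Both knockdown libraries lay far below both controls. The log2 fold change was -1.44 ± 0.11 (SE, n = 2 per group), that is 2.71-fold lower. Of 9474 genes in the fit, 6.76% were called as having fewer spliced reads, and Idh2 was the only member called. A larger fall was fitted for 36 of the 9474 genes. It kept its call without each of the 4 libraries in turn, with log2 fold changes of -1.57 to -1.33.

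The remaining members differed less. Idh3g was at 201 and 190.3 CPM in controls and 173 and 165 in knockdown, a log2 fold change of -0.23 ± 0.08 that was not called with all 4 libraries but was called without knockdown library 1 (-0.26) or without knockdown library 2 (-0.21). Idh1 was at 261 and 259 in controls and 237 and 251 in knockdown. Mdh2 was at 252 and 273 in controls and 253 and 237 in knockdown. Cs was at 500.4 and 500.8 in controls and 498 and 497 in knockdown, and Idh3a at 209 and 209.8 in controls and 214 and 209 in knockdown. Idh3b was at 264 and 262 in controls and 296 and 263 in knockdown. Ogdh was at 423 in both controls and 439 and 461 in knockdown, and Sdha at 153 and 149 in controls and 163 and 156 in knockdown. For these 7 genes the log2 fold changes ran from -0.12 for Mdh2 to 0.07 for Ogdh, with SEs of 0.07 to 0.08. The groups did not overlap for Ogdh and Sdha, which were higher in both knockdown libraries, or for Idh1 and Cs, which were lower, although the means of Cs were 500.6 and 497.8. With Idh2 and Idh3g, 4 of the 9 genes were thus lower without overlap and 2 higher, where 22.0% and 27.5% of all genes were, so such a gap between 2 and 2 libraries is frequent.

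**Figure D4:**
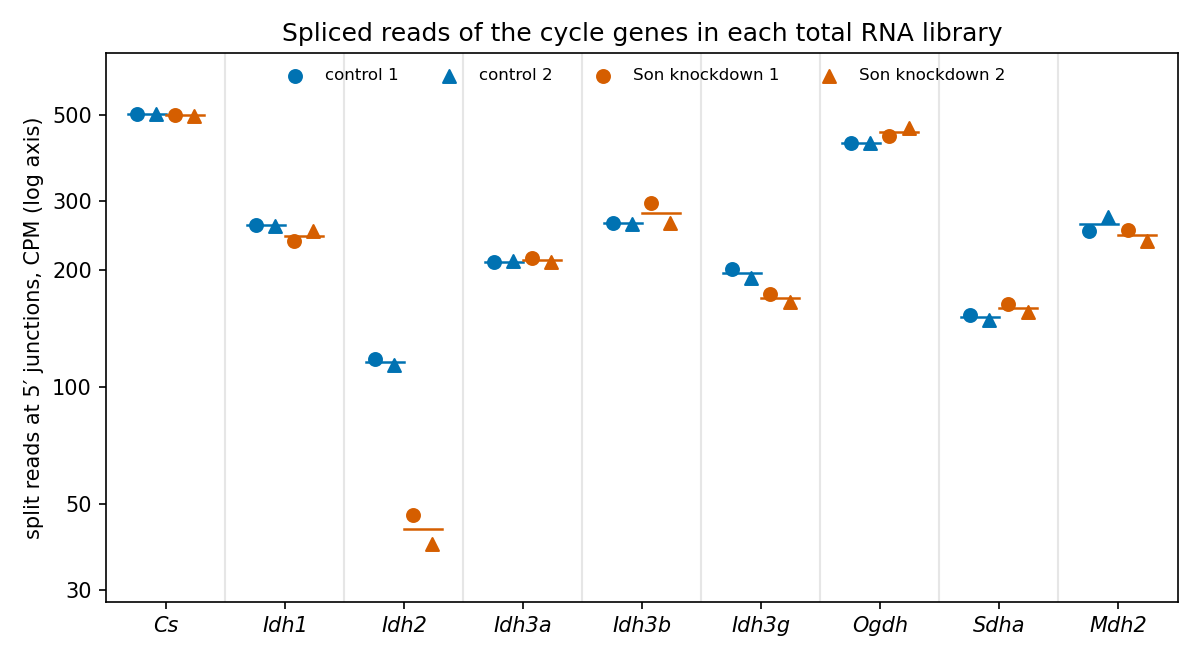
Split reads at 5′ junctions in CPM (vertical log axis) summed over the listed introns of each gene, in each total RNA library; bars mark the mean of 2 libraries. Idh2 drops from 118 and 114 to 46.9 and 39.4, and Idh3g from 201 and 190.3 to 173 and 165.

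Because genes differ in the number of listed introns, levels were compared between genes by the median CPM per junction. In controls the order was Mdh2 (62.4 ± 6.0 CPM per junction, SD, n = 2), Cs (58.7 ± 2.7), Idh3b (31.5 ± 1.7), Idh1 (26.7 ± 0.63), Idh3a (26.5 ± 0.12), Idh2 (23.1 ± 0.095), Idh3g (18.7 ± 1.6), Ogdh (17.6 ± 0.97) and Sdha (14.3 ± 0.67). Mdh2 and Cs did not differ beyond their spread, nor did Idh1 and Idh3a, nor Idh3g and Ogdh. In knockdown Idh2 was at 8.61 ± 0.43, below Sdha at 14.1 ± 1.4, and so moved from the sixth to the ninth place of the 9 genes.

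The long reads cover polyA RNA, with 1 library per condition, so no test between conditions is possible and the intervals below cover counting error only. Son itself had 217 long reads in the library labelled control and 37 in that labelled knockdown, a log2 ratio of -1.82. Idh2 had 168 long reads in control and 34 after knockdown, or 54.5 CPM (95% Wilson interval 46.9 to 63.4) and 18.1 (13.0 to 25.3). The log2 ratio was -1.57 (exact counting interval -2.17 to -1.05). Of 9616 genes with at least 20 long reads, 4.16% were at least 2-fold lower in the knockdown library, and 74 had a lower ratio than Idh2. No other member was lower by 2-fold. The ratios of the other 8 genes lay between -0.44 (-0.85 to -0.05) for Ogdh, with 172 and 77 reads, and 0.27 (-0.01 to 0.55) for Idh3b, with 260 and 191 reads. For Sdha, at 415 and 207 reads, the log2 ratio was -0.29 (-0.53 to -0.04), and for Idh3g, at 235 and 130 reads, it was -0.14 (-0.46 to 0.18). It was -0.31 (-0.63 to -0.01) for Idh1, -0.26 (-0.52 to -0.01) for Idh3a, -0.05 (-0.24 to 0.14) for Cs and 0.12 (-0.02 to 0.25) for Mdh2. The sign differed between the 2 assays for Ogdh, Sdha and Mdh2. Their log2 fold changes of spliced reads were small, at 0.07 ± 0.07 (SE) for Ogdh, 0.06 ± 0.08 for Sdha and -0.12 ± 0.08 for Mdh2. None of them was called, so these values do not show opposite directions. Whether the assays differ was not tested.

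**Figure D5:**
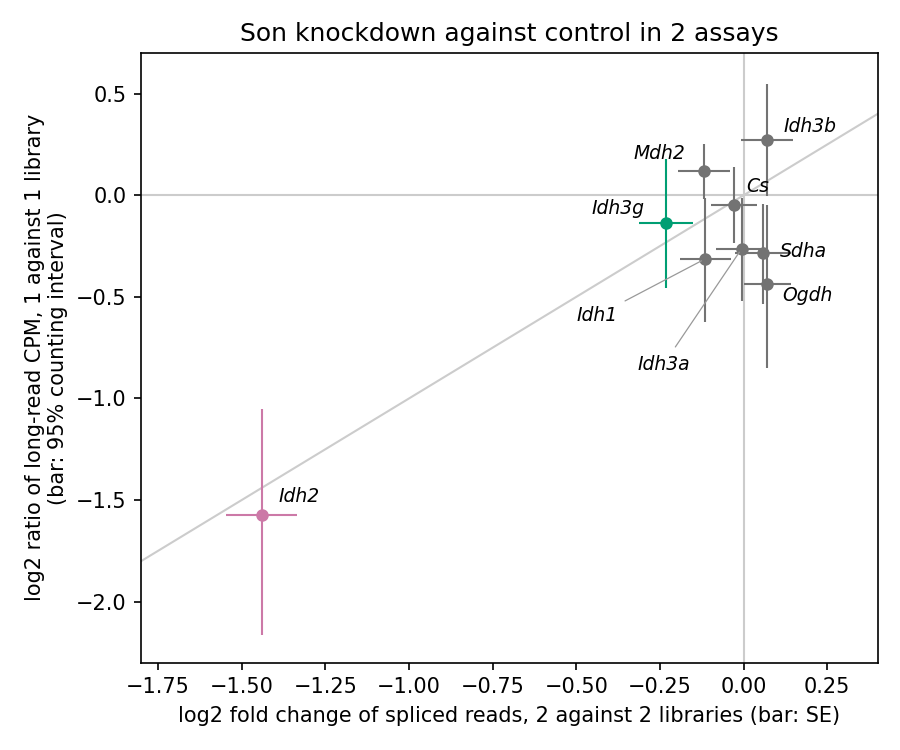
Log2 fold change of spliced reads in total RNA (horizontal axis, bars are SE) against the log2 ratio of long-read CPM (vertical axis, bars are 95% counting intervals) for the 9 genes, with the line of equal change. Idh2 sits at -1.44 and -1.57, and the other 8 genes lie between -0.23 and 0.07 on the horizontal axis and between -0.44 and 0.27 on the vertical one.

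Of 57 annotated transcripts of the 9 genes, 48 had a long read and 17 had at least 20 over both libraries. Of these 17, 3 were at least 2-fold lower and 1 at least 2-fold higher, where 5.8% and 3.32% of all 13807 such transcripts were. The protein-coding Idh2-201 had 161 reads in control and 30 in knockdown, a log2 ratio of -1.69 (-2.32 to -1.14). The other Idh2 transcripts had 7 reads in control and 4 in knockdown in all, of which 6 and 3 fell on transcripts annotated for nonsense-mediated decay, the pathway that removes mRNAs with an early stop codon. The coding share of Idh2 reads was 95.8% (91.7% to 98.0%) in control and 88.2% (73.4% to 95.3%) in knockdown, and those intervals overlap. The other 2 lower transcripts rest on few reads. Ogdh-202 had 19 and 4 reads, and Idh3a-204, a nonsense-mediated decay transcript, had 18 and 4, with counting intervals of the log2 ratio of -3.55 to 0.06 and -3.48 to 0.15.

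The transcript that was higher in the knockdown library was Mdh2-203, annotated for nonsense-mediated decay. It had 35 reads in control and 52 in knockdown, or 11.4 and 27.7 CPM, a log2 ratio of 1.28 (0.64 to 1.95). Its share of Mdh2 reads was 3.05% (2.20% to 4.22%) in control and 6.87% (5.28% to 8.90%) in knockdown. The coding Mdh2-201 had 1090 and 697 reads, at a log2 ratio of 0.07 (-0.07 to 0.21). Retained-intron transcripts held 9.79% (6.61% to 14.3%) of Idh3g reads in control and 14.6% (9.56% to 21.7%) in knockdown, and those intervals overlap. Of Cs reads they held 7.96% and 7.57%. Taken over all 9 genes, they held 3.23% (2.71% to 3.85%) of reads in control and 3.53% (2.82% to 4.41%) in knockdown. All 7 annotated transcripts of Idh1 are coding, so its long reads, 272 in control and 133 in knockdown, could fall on no other type. Over the 9 genes together, nonsense-mediated decay transcripts held 1.60% (1.24% to 2.06%) of 3683 reads in control and 2.96% (2.32% to 3.78%) of 2095 reads in knockdown. Mdh2-203 gave 35 of 59 such reads in control and 52 of 62 in knockdown.

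Of 9 other enzymes and subunits of the cycle (Dlst, Dld, Suclg1, Suclg2, Sucla2, Sdhb, Sdhc, Sdhd and Fh1), none was called in splicing efficiency by edgeR or DESeq2, or in spliced reads by edgeR, DESeq2 or limma. In splicing efficiency limma called 0 of all 9370 genes, so its lack of calls here says nothing about these enzymes. At an unadjusted p under 0.05 the count of these 9 by edgeR was 0 for splicing efficiency and 0 for spliced reads. Their log2 fold changes of spliced reads ran from -0.16 to 0.14, with a median of -0.0035 against 0.01 over all genes, and none of their 45 introns tested was called. Of 27 genes for entry to the cycle and side reactions, 24 were listed, and 4 were called both in lower efficiency, where 6.98% of all genes were called, and in fewer spliced reads, where 6.76% were. Pcx, the pyruvate carboxylase that refills oxaloacetate, was at 82.0 and 81.2 CPM in controls and 58.7 and 50.2 in knockdown. Got1, the cytosolic aspartate aminotransferase, was at 469 and 474 in controls and 316 and 285 in knockdown. Ogdhl, a relative of Ogdh, was at 291 and 299.96 in controls and 205 and 192 in knockdown. Slc25a1, the mitochondrial citrate carrier, was at 88.3 and 77.6 in controls and 62.2 and 56.6 in knockdown. Their log2 fold changes were -0.60 ± 0.11 for Pcx, -0.67 ± 0.07 for Got1, -0.60 ± 0.08 for Ogdhl and -0.50 ± 0.11 for Slc25a1, each smaller than that of Idh2. Of 187 introns tested in this list, 3 were called lower, 1 each in Pdha1, Ogdhl and Slc25a1, where 1.71% of all introns were. Both lists were drawn up with earlier results of these libraries known.

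The 5 genes whose efficiency per gene over the 4 libraries lay nearest to that of Idh2, by Euclidean distance among 8788 genes, were Tatdn3, Bcam, Aph1a, Atp2a3 and Med24, at distances of 0.0111 to 0.0147. Bcam, for example, was at 0.979 and 0.973 in controls and 0.939 and 0.932 in knockdown. In spliced reads 3 of the 5 (Bcam, Atp2a3 and Med24) were called fewer, where 6.76% of all genes were, and Tatdn3 and Aph1a were not called. The 5 genes were picked by efficiency in these same libraries, and the split reads behind it also enter the spliced reads. Their share of calls is therefore a description and supports no enrichment. The log2 fold changes were -0.46 for Tatdn3, -1.04 for Bcam, -0.17 for Aph1a, -0.60 for Atp2a3 and -0.70 for Med24, all lower than control and each smaller than the -1.44 of Idh2.

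Some reads could belong to a neighbour or a copy. Idh3b overlaps Nop56 on the opposite strand, Sdha overlaps a processed pseudogene on the opposite strand, Idh2 overlaps the annotated gene Gm45203 on its own strand, and Cs overlaps the snoRNA gene Gm23182 on its own strand. Whether the counting used strand is not given in the sources used here, so unsplit reads of these genes are the less certain. All 73 listed introns of the members' main transcripts, of 105 annotated, have the same length in GENCODE M21 as in the tables.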

How the data were processed

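The deposited files of the total RNA libraries are SPLICE-q tables that hold, per intron, the authors' counts of split and unsplit reads at the 5′ and 3′ junctions and a score, the fraction of split reads; that fraction equals split over all reads and no listed junction has fewer than 10 reads. The long-read files hold the deposited count of reads per transcript. Per the submitters' processing notes the build was GRCm39 and minimap2 and SAMtools were used; versions and the short-read aligner are not given in the sources used here. Introns listed in all 4 libraries were used once each (68322; 681 under more than 1 gene left out of sums per gene). edgeR 4.0.16 (R 4.3.3) fitted split and unsplit reads, summed over both junctions, with a term per library and tested unsplit reads in knockdown. Introns and genes needed at least 10 split and 10 unsplit reads in all in these sums. Spliced reads used TMM and filterByExpr. P-values were adjusted by Benjamini-Hochberg over all features, and called means under 0.05. Long reads used a pseudocount of 0.5 reads and no test. DESeq2 1.42.0 and limma 3.58.1 served as alternatives, and the fits were tested on simulated data. Gene names, intron numbers and mRNA sequences came from GENCODE M21, by identifier. The members and all gene lists were chosen with earlier results of these data known. Named were the 9 genes, called introns, all Idh2 introns, for each other member the introns lowest in controls and falling most, transcripts with at least 20 long reads, called genes of the lists with up to 3 others, and the 5 genes nearest Idh2. Introns of up to 100 nt and those higher in Ogdh were named after their values were seen. A single gene of the lists and 1 junction sequence are not reported here.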

Additional observations from a re-analysis of the deposited data

How the results depend on the processing

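The number of introns, genes or transcripts of the 9 genes that were called changed under some settings, and no called value changed direction. The 2 introns called lower became 1 with the 5′ junction alone, 1 with the 3′ junction alone, 1 with DESeq2 (intron 4 of Idh2) and 0 with limma on log2 odds, a fit that called 0 of all introns, and 1 to 2 when 1 library was left out. The 2 genes called lower in efficiency became 1 with the 5′ junction alone, 0 with limma on log2 odds, and 1 without any 1 library, where Idh2 remained each time. The 1 gene called in fewer spliced reads became 2 with 3′ junctions, and 1 to 2 when 1 library was left out, Idh3g being the addition. The 3 transcripts at least 2-fold lower became 1 with a pseudocount of 5 reads and 1 with at least 50 reads. With the replicate number as a replicate block, 2 introns, 2 genes in efficiency and 1 gene in spliced reads were called, as without it; the labels do not say that a number marks a shared culture, and same-numbered libraries deviated with a correlation of 0.011 over 9474 genes. Without control library 1, the log2 odds ratio of Idh2 intron 9 was fitted at 7.97 against a control with 0 unsplit reads and is no measure of size. Over all introns, the 1084 called lower became 231 with the 5′ junction alone, 319 with the 3′ junction alone, 275 with DESeq2, and 163 to 1394 when 1 library was left out. Over all genes, the 654 called lower became 0 with limma and 176 to 695 when 1 library was left out, and the 654 lower and 12 higher became 600 and 115 with split and unsplit reads scaled separately. The 640 genes with fewer spliced reads became 269 with the best covered intron and 344 to 1287 when 1 library was left out. Among the Idh2 introns, intron 9 had the fewest junction reads, with 91 in knockdown library 2 summed over both ends.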
